A study of Mus musculus with 6 samples.

Results

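Rrm1, Rrm2, E2f8 and Ccne1 are 4 genes that act as a cell enters S phase, and they were taken by name from the 1228 genes of the deposited table. All 4 were found under those names. They were chosen by their FPKM values, which were higher in the OGD/R libraries than in the control libraries, so the difference between the groups is given for them as a description, with no test. RNA was sequenced from Bv2 cells, an immortalised mouse microglial line of wild-type genotype, in 3 samples deprived of oxygen and glucose and then returned to normal culture (OGD/R, the R standing for reperfusion) and in 3 control samples. OGD/R cells had 30 min in nitrogen, then 2 h without glucose or serum at 1% oxygen, then 24 h in standard medium with serum. The protocol also speaks of an infection 72 h before, without saying which samples had it, and does not say how control cells were handled. Nothing says that the replicates were separate cultures, so a p-value here speaks of the spread among these 6 samples and that spread may be technical.

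Ribonucleotide reductase turns ribonucleotides into the deoxynucleotides from which DNA is made. Rrm1 encodes its large catalytic subunit, which also carries the sites that sense nucleotide levels, and Rrm2 the small subunit with the iron centre and the tyrosyl radical. Ccne1 encodes cyclin E1, which activates Cdk2 at the transition from G1 to S phase. E2f8 encodes an atypical E2F factor that represses E2F target genes later in the cycle. Genes of this group are well-known targets of the activating E2F factors, which are held back by the retinoblastoma proteins until a cell commits to dividing.

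The DNA around the starts of the 4 genes is shown. It was searched for letters that E2F and other cell cycle factors are known to bind. The genes were chosen as higher in OGD/R, so that shared direction is no ground for a shared factor. The windows run from 250 bases before to 50 bases after the start of transcription, as given by RefSeq on GRCm38.p6. They are chr7:102441445-102441744 on the plus strand for Rrm1, chr12:24708004-24708303 on the plus strand for Rrm2, chr7:48881547-48881846 on the minus strand for E2f8 and chr7:38107441-38107740 on the minus strand for Ccne1. Capitals mark matches on either strand to 4 kinds of short motif, and neighbouring matches can overlap. The E2F core was searched as TCCCGC, then in the form TGGCGC, then in the form TCGCGC, and last in the form TGCCGC. The CCAAT box was searched by the letters of its name, the cell cycle homology region (CHR) as TTTGAA and the core of the YY1 motif as ATGGCGG.
Rrm1: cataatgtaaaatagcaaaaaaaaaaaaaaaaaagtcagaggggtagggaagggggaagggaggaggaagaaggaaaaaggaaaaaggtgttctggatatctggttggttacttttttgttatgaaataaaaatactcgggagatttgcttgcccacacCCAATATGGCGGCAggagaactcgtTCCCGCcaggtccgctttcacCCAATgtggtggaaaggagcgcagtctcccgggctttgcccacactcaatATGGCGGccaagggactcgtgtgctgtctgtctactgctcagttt
Rrm2: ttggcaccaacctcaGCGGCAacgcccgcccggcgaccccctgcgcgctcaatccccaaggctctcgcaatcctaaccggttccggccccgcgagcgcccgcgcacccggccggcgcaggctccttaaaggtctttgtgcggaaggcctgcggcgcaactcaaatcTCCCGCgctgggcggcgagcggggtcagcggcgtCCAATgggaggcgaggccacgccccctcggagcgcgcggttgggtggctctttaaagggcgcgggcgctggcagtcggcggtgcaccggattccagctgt
E2f8: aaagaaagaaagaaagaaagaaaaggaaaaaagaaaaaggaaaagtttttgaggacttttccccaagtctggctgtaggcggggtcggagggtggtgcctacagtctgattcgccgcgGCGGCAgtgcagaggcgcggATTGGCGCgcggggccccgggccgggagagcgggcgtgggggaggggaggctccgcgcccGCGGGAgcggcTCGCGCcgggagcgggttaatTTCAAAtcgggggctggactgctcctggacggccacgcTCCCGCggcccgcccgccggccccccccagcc
Ccne1: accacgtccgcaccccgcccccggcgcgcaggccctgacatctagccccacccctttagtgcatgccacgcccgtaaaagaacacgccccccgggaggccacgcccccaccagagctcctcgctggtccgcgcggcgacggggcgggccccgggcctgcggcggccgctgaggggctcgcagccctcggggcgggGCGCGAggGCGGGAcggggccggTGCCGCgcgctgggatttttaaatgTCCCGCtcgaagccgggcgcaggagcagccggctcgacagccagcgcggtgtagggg

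All 4 windows held the E2F core, with 2 matches in Rrm1, 2 in Rrm2, 5 in E2f8 and 4 in Ccne1. These letters were also in 36.3% of the 32851 RefSeq promoter windows of the same length. For genes of the table they were in 50.5% of 511 windows with the higher mean in OGD/R and 48.9% of 493 with the lower. The core is mostly G and C, and none of these sets was matched for GC content. As the motifs were also chosen with the sequences in view, nothing is read from the number of matches. The longer E2F form (TTTCCCGC, TTTGGCGC, TTTCGCGC or TTTGCCGC), held by 2.26% of all windows, was in none of the 4. In Ccne1 the 4 cores began 55, 47, 32 and 7 bases before the start. A CCAAT box, the letters bound by NF-Y and found in 37.4% of all windows, was in Rrm1, Rrm2 and E2f8. In E2f8 it lay on the strand opposite to the gene, 112 bases before the start, and ran into an E2F core that began 110 bases before it. E2f8 had the only CHR, the letters bound by the MuvB complexes, 20 bases before the start, where 17.9% of all windows held one. The YY1 core, in 4.05% of windows, occurred 2 times in Rrm1 and in no other of the 4. The match that began 86 bases before the start shared letters with the E2F core that began 83 bases before it. The window of Rrm1 was also the lowest in GC content at 47.0%, against 71.3% in Rrm2, 66.7% in E2f8 and 76.0% in Ccne1. A match of letters is a description and does not show that a factor was bound there.

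Values are FPKM, fragments scaled to the length of a gene and to the mapped fragments of its library, as deposited by the authors. Mean FPKM was higher in OGD/R for 605 of the 1228 genes and lower for 623, and no gene came closer to equal means than a log2 ratio of 1.03 on the higher side and -0.97 on the lower. The table thus holds genes that already differ about 2-fold on these libraries; genes outside it are not analysed here. Steps between the lowest FPKM values gave 8014000 to 8656000 counted units in OGD/R libraries and 7612000 to 8238000 in control libraries. Of 15 microglial markers the table held Cx3cr1 and P2ry12, at means of 1.77 and 1.25 FPKM in OGD/R and 0.373 and 0.530 FPKM in control. Of 22 markers of other brain and vessel cells it held Tubb3, Cspg4 and Vwf, whose sum was 1.47 to 1.97 FPKM in OGD/R and 4.01 to 5.11 FPKM in control, with Tubb3 and Cspg4 listed at 0 in OGD/R replicate 2. Their part in the values below was not tested, and the other markers are not analysed here.

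The 2 subunits of ribonucleotide reductase were the more abundant of the 4 genes. Rrm1 (ENSMUSG00000030978) had 41.02, 42.69 and 36.31 FPKM in OGD/R replicates 1 to 3, against 17.91, 14.68 and 13.56 FPKM in control replicates 1 to 3. The lowest OGD/R library stood 2.03-fold above the highest control library, so the groups did not overlap. The means were 40.0 ± 3.31 FPKM in OGD/R and 15.4 ± 2.26 FPKM in control (SD, n = 3 each), a ratio of 2.60. Its position on GRCm38 is chromosome 7, plus strand, 102441695 to 102469771.

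Rrm2 (ENSMUSG00000020649) had 44.76, 47.82 and 55.23 FPKM in OGD/R replicates 1 to 3, against 18.17, 22.36 and 21.81 FPKM in control replicates 1 to 3. Again every OGD/R library was higher than every control library, by 2.00-fold at the closest. The means were 49.3 ± 5.38 FPKM in OGD/R and 20.8 ± 2.28 FPKM in control (SD, n = 3 each), a ratio of 2.37. Its position is chromosome 12, plus strand, 24708241 to 24714146. The p53-inducible small subunit, Rrm2b, is not analysed here.

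The regulators were lower in level than the subunits. E2f8 (ENSMUSG00000046179) had 12.33, 12.37 and 13.36 FPKM in OGD/R replicates 1 to 3, against 4.82, 4.97 and 4.24 FPKM in control replicates 1 to 3. It had the widest gap of the 4 genes between the groups, 2.48-fold from the lowest OGD/R to the highest control library, and the highest ratio of means, 2.71. The means were 12.7 ± 0.583 FPKM in OGD/R and 4.68 ± 0.386 FPKM in control (SD, n = 3 each). Its position is chromosome 7, minus strand, 48866429 to 48881596.

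Ccne1 (ENSMUSG00000002068) had 17.40, 16.37 and 18.56 FPKM in OGD/R replicates 1 to 3, against 6.66, 9.52 and 8.91 FPKM in control replicates 1 to 3. Its groups came closest among the 4 genes, with 1.72-fold between the lowest OGD/R and the highest control library, and control replicate 1 stood apart from the other 2 controls on the low side. The means were 17.4 ± 1.10 FPKM in OGD/R and 8.36 ± 1.51 FPKM in control (SD, n = 3 each), a ratio of 2.09. Its position is chromosome 7, minus strand, 38097984 to 38107534, so 3 of the 4 genes are on this chromosome, each at a distance from the others.

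**Figure D1:**
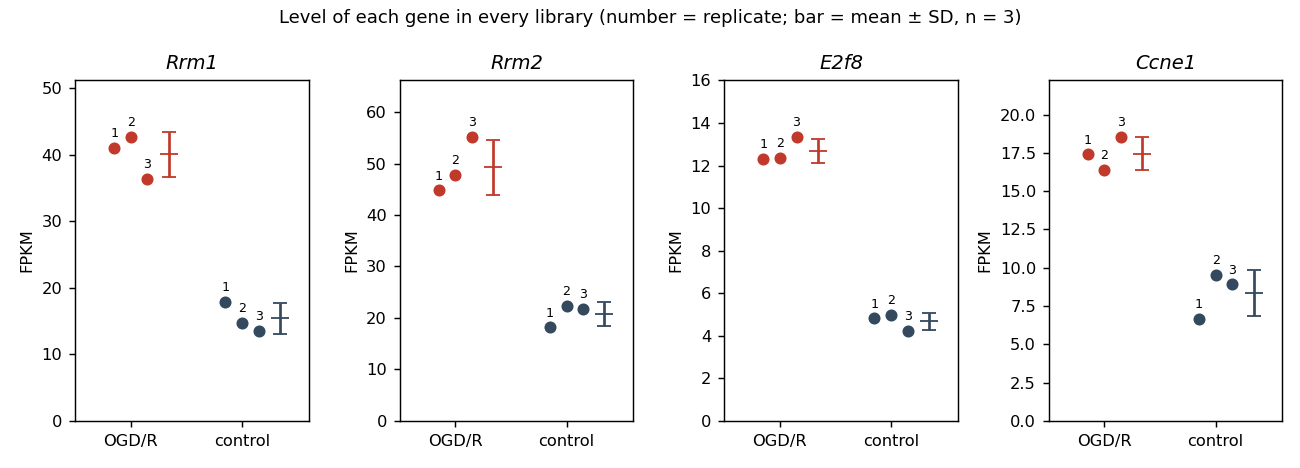
FPKM (vertical axis, from 0) of Rrm1, Rrm2, E2f8 and Ccne1 in each OGD/R and control library, with the replicate number beside each point and the mean ± SD (n = 3) as a bar. In each panel the 3 OGD/R points sit above the 3 control points, from 1.72-fold at the closest in Ccne1 to 2.48-fold in E2f8.

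In all 4 genes the OGD/R values lay above the control values without overlap, as they did in 48.4% of the 1228 genes of the table. Nothing is read from this count, since the genes were picked for it. Within the table the 4 ratios were not extreme. Ranked among the 605 genes with the higher mean in OGD/R, from the largest ratio down, E2f8 was number 299, Rrm1 number 328, Rrm2 number 418 and Ccne1 number 573, the last close to the edge of the table at about 2-fold. In level they stood higher: ranked over the 1228 genes, Rrm2 was number 48 in OGD/R and 140 in control, and Rrm1 was number 61 in OGD/R and 183 in control. Ccne1 was number 147 in OGD/R and 294 in control, and E2f8 was number 199 in OGD/R and 430 in control. As these are bulk samples, a larger share of cells near S phase and more RNA of these genes per cell cannot be told apart.

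Fewer counted units lay behind the regulators than behind the subunits. From the steps between low FPKM values, Rrm1 rested on 3461 to 3973 counted units per OGD/R library and 1137 to 1515 per control library. Rrm2 rested on 994 to 1325 units in OGD/R and 387 to 510 in control, and E2f8 on 538 to 629 in OGD/R and 176 to 223 in control. Ccne1 had the fewest, at 368 to 428 in OGD/R and 136 to 209 in control. For the lowest of these, 136 units of Ccne1 in control replicate 1, the 95% Poisson interval was 114.1 to 160.9 units. In units not scaled to library size, it lay below the interval of control replicate 2, 181.6 to 239.3. It overlapped that of control replicate 3, 155.6 to 209.4. Such intervals cover counting error only. In OGD/R the coefficient of variation was 8.27% for Rrm1, 10.9% for Rrm2, 4.60% for E2f8 and 6.28% for Ccne1, where the largest counting error of a library was 1.70%, 3.17%, 4.31% and 5.21% in the same order. In control it was 14.7% for Rrm1, 10.96% for Rrm2, 8.24% for E2f8 and 18.0% for Ccne1, where the largest counting error was 2.97%, 5.08%, 7.54% and 8.58%. Spread between samples can hold more than counting error, but for E2f8 in both groups and Ccne1 in OGD/R the values were close. They are set side by side as a description.

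The 4 genes did not vary together among libraries of 1 group. In OGD/R replicate 3 Rrm1 was the lowest of its group, 0.13 below the group mean on the log2(FPKM + 1) scale, while Rrm2, E2f8 and Ccne1 were the highest of theirs, by 0.17, 0.07 and 0.09. In control replicate 1 the order was also split: Rrm1 was 0.22 above its group mean and E2f8 0.04 above, while Rrm2 was lower with -0.18 and Ccne1 with -0.28. Exon length moved with the deviations across the table in all 6 libraries, as a description across genes that share libraries. The Spearman correlations of the deviations of 852 genes from their group means with exon length were 0.20, 0.16 and -0.25 in OGD/R replicates 1 to 3. They were 0.21, -0.25 and -0.16 in control replicates 1 to 3. The median deviation of the shortest genes (up to 1585 nt of exons) was 0.09 in OGD/R replicate 3 and -0.14 in control replicate 1, and that of the longest genes (at least 5392 nt) was -0.03 and 0.02 in the same libraries. The median of the longest genes had the sign opposite to the correlation in OGD/R replicate 2 (-0.0038) and control replicate 3 (0.0076). Rrm1 has 11012 nt of annotated exons and E2f8 5443 nt, both within that longest class, and Rrm2 and Ccne1 have 2771 and 2662 nt. The sign for a single gene did not always follow its length. Rrm1 deviated with the sign of the correlation in all 6 libraries. E2f8, also in the longest class, went against it in OGD/R replicates 1 to 3, with -0.04, -0.03 and 0.07. It did so in control replicate 2 as well, with 0.07, and went with it in control replicates 1 and 3, with 0.04 and -0.11. The deviations of a gene within a group are tied to each other, so these signs are not separate agreements or disagreements. The part of length in these values was not tested.

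The ratio of the subunits in FPKM varied more between libraries than between groups. The ratio of Rrm2 to Rrm1 FPKM was 1.09, 1.12 and 1.52 in OGD/R replicates 1 to 3, against 1.01, 1.52 and 1.61 in control replicates 1 to 3. The groups overlapped, and the difference of the means, 1.24 ± 0.240 in OGD/R and 1.38 ± 0.321 in control (SD, n = 3 each), was smaller than either SD. The lower ratios, in OGD/R replicates 1 and 2 and control replicate 1, fell where deviations correlated positively with exon length (0.20, 0.16 and 0.21). In OGD/R replicate 3 and control replicates 2 and 3 that correlation was negative (-0.25, -0.25 and -0.16). Rrm1 has the longer exons, and the part of length in this ratio was not tested. For the regulators the ratio of Ccne1 to E2f8 was 1.41, 1.32 and 1.39 in OGD/R replicates 1 to 3, against 1.38, 1.92 and 2.10 in control replicates 1 to 3. Here control replicate 1 was among the OGD/R values and the other 2 controls lay above all of them.

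**Figure D2:**
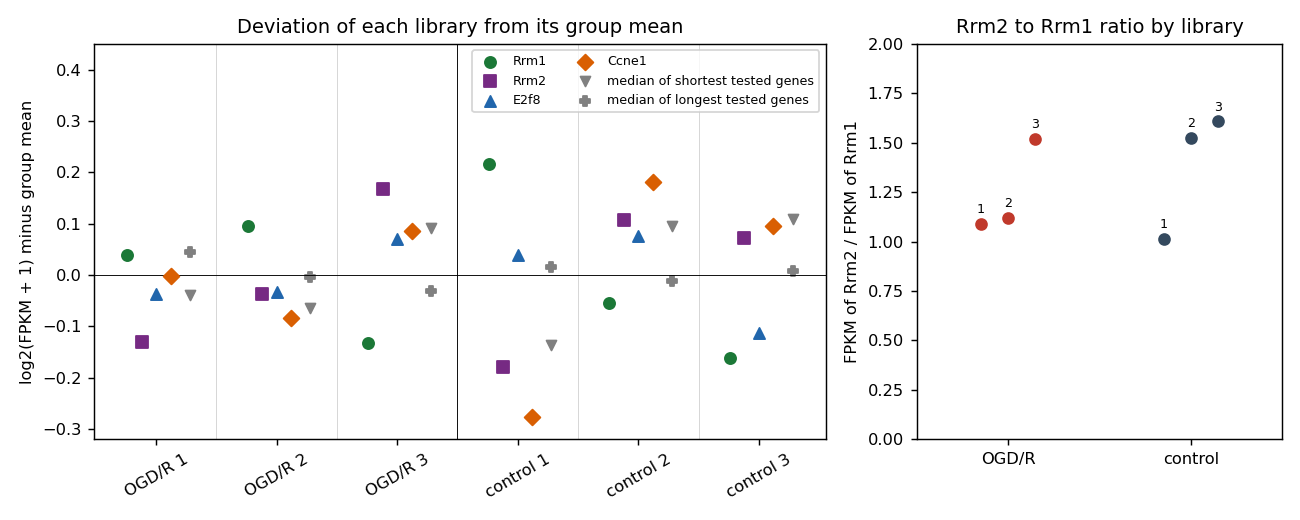
Left, the deviation of each library from its group mean in log2(FPKM + 1) for Rrm1, Rrm2, E2f8 and Ccne1, with the median deviation of the shortest (up to 1585 nt of exons) and the longest (at least 5392 nt) tested genes in grey. Right, the ratio of Rrm2 to Rrm1 FPKM in each library, with the replicate number beside each point. Rrm1 and Rrm2 lie on opposite sides of 0 in each of the 6 libraries, and the ratio is 1.01 to 1.12 in 3 libraries and 1.52 to 1.61 in the other 3, with both groups in each set. The part of exon length in this split was not tested.

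The order of levels between the genes depended on the length used. In FPKM as deposited it was Rrm2, Rrm1, Ccne1 and E2f8 in both groups, and neighbours in that order did not overlap within a group, although in control the lowest Rrm2 value, 18.17 FPKM, was close to the highest Rrm1 value, 17.91 FPKM. Low values of the table came out as whole units when the length of a gene was the union of all its annotated exons. In genes where this union was over 1.3 times the longest transcript, 95.8% of 144 low values were whole with the union and 31.9% of 411 with the longest transcript, where chance gave 30.5% and 29.2%. The library sizes had been chosen with the union as length, and none was sought for the longest transcript, so this comparison leaned to the union. For Rrm1 the union of 11012 nt, drawn from 7 annotated transcripts of which several retain introns, was 2.76 times its principal coding transcript of 3997 nt. The same factor was 1.26 for Rrm2, 1.47 for E2f8 and 1.33 for Ccne1. If every unit came from the principal transcript, the level per kilobase would be 110 ± 9.12 in OGD/R and 42.4 ± 6.22 in control for Rrm1, and 62.3 ± 6.80 in OGD/R and 26.3 ± 2.88 in control for Rrm2 (SD, n = 3 each). Rrm1 would then stand above Rrm2 in all 6 libraries, and the ratio of Rrm2 to Rrm1 would be 0.571 ± 0.110 in OGD/R and 0.634 ± 0.147 in control. The ratios between OGD/R and control of each gene do not depend on the length as long as the same length is used for both groups. Whether the mix of transcripts differed between the groups was not tested.

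E2f8 shares its locus with an antisense gene that is also in the table. Gm2788 runs on the plus strand of chromosome 7 from 48877958 to 48913040 and overlaps 610 nt of E2f8 exons, or 11.2% of them. It had 1.36, 1.93 and 1.80 FPKM in OGD/R replicates 1 to 3, against 0.60, 0.45 and 0.71 FPKM in control replicates 1 to 3, without overlap. The sources used here do not say whether reads were counted by strand, so those of the shared stretch cannot be assigned and both genes are uncertain to that extent. The gene overlapping Rrm1, Gm45399, shares no annotated exon bases with it and is not analysed here. No annotated gene overlaps Rrm2 or Ccne1.

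The genes whose values over the 6 libraries were closest to each of the 4 were found among 338 named genes with a mean of at least 5 FPKM. Closeness was the mean absolute difference of the log2 ratio to the control mean, with 1 added to each value. For Rrm1 these were Arl4c, a small GTPase of the ARF family, Cenpf, a kinetochore protein, and Prps2, a synthetase of the ribose phosphate donor from which nucleotides are built, with differences of 0.05 each. Prps2 was also near Rrm1 in level, at 40.1 ± 3.25 FPKM in OGD/R and 15.6 ± 2.03 FPKM in control (SD, n = 3 each). For Rrm2 they were Nasp, a histone chaperone, with 0.02, the smallest difference of the search, and then the mitotic kinase Aurka and the ribonuclease Rnase4 with 0.06 each. Nasp had 26.12, 29.31 and 33.93 FPKM in OGD/R replicates 1 to 3, against 10.64, 13.05 and 13.15 FPKM in control replicates 1 to 3. E2f8 was closest to Depdc1b with 0.04, and to Cdca2, which recruits a phosphatase to chromosomes, and cyclin A2 (Ccna2) with 0.06 each. Ccne1 was closest to Baz1a, a subunit of chromatin remodellers, and to Dek, a chromatin protein, and Dna2, a nuclease and helicase of Okazaki fragment processing, with 0.07 each. Between the 4 genes themselves the differences ran from 0.12 for Rrm2 and E2f8 to 0.25 for Rrm1 and Rrm2 and 0.34 for Rrm1 and Ccne1. The closest genes were the 3 smallest differences out of 338, so theirs were bound to be small. Nothing is read from the contrast with the pairs of the 4 genes.

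**Figure D3:**
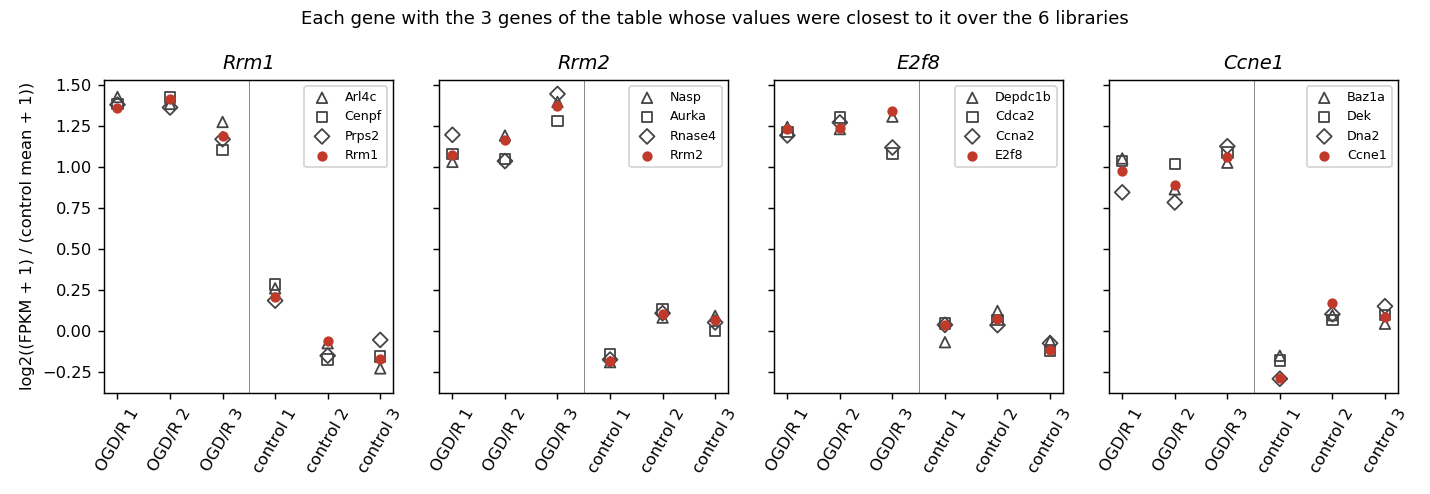
For each of Rrm1, Rrm2, E2f8 and Ccne1 (filled circles), log2 of the value over the control mean, with 1 added to each, in every library, beside the 3 genes with the closest values (open symbols). Nasp lies closest to Rrm2 on average (0.02), and Rrm1 and its neighbours are lowest among OGD/R libraries in replicate 3, where Rrm2 and its neighbours are highest.

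Of 260 other genes on 7 lists of the cell cycle, nucleotide supply and p53, 56 were in the table and 55 were tested with limma on log2(FPKM + 1). At an adjusted p under 0.05, 51 of them were higher in OGD/R and 4 lower, where the shares over all 852 genes tested were 46.6% higher and 50.7% lower, or 97.3% in either direction. The lists were chosen with results of these data known, and the table was picked for differences, so these counts are not independent evidence. Of 34 listed genes of deoxynucleotide synthesis and salvage, 3 were in the table, and beside Rrm1 and Rrm2 this was Tk2, the mitochondrial thymidine kinase. Tk2 fell to 4.72 ± 0.137 FPKM in OGD/R, against 9.69 ± 1.45 FPKM in control (SD, n = 3 each; limma adjusted p = 0.00061), the opposite direction to the reductase subunits. Mybl1, a Myb factor, was the only other member of the E2F and RB list of 20 in the table, and it rose to 3.21 ± 0.602 FPKM in OGD/R, against 1.42 ± 0.0586 FPKM in control (limma adjusted p = 0.0012). Of the genes for the other E2F factors, the retinoblastoma proteins and cyclin E2, none is analysed here.

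Among cyclins, kinases and inhibitors of G1/S, 5 of 25 listed genes were in the table, and beside Ccne1 the 3 tested all rose. Ccna2, encoding the cyclin that takes over Cdk2 in S phase, had 58.5 ± 3.15 FPKM in OGD/R and 25.02 ± 1.14 FPKM in control (SD, n = 3 each; limma adjusted p = 0.00011). Ccnf encodes cyclin F, the ubiquitin ligase subunit that directs the protein of Rrm2 to degradation, and rose 2.12-fold (limma adjusted p = 0.0013). Cdkn2c, encoding an inhibitor of Cdk4 and Cdk6, rose 2.09-fold (limma adjusted p = 0.0077). Myc was below the expression minimum and not tested, at 0.147 ± 0.0702 FPKM in OGD/R and 0.777 ± 0.110 FPKM in control.

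At the replication origin and fork 4 of 55 listed genes were in the table, of which 3 rose and 1 fell. Clspn, an adaptor of the replication checkpoint, and Mcm10, a factor of origin firing, rose 2.42-fold and 2.11-fold (limma adjusted p = 0.00011 and 0.00016). Tipin, which steadies the fork, rose to 54.6 ± 10.9 FPKM in OGD/R, against 26.7 ± 3.95 FPKM in control (SD, n = 3 each; limma adjusted p = 0.0017). Recql4, a helicase of replication initiation, fell to 9.28 ± 0.429 FPKM in OGD/R, against 24.2 ± 2.81 FPKM in control (limma adjusted p = 0.00015). Of 33 listed genes of S phase checkpoint and repair 10 were in the table, and all 10 rose, with ratios of 2.04 to 2.88. Among them were the mismatch repair gene Msh6, the helicase Brip1, the cohesin acetyltransferase Esco2 and the kinase Wee1. Of 76 listed genes of G2 and mitosis 34 were in the table, and all 34 rose, with ratios of 2.12 to 3.18 and a median of 2.39. The ratios of Rrm1, Rrm2 and E2f8 lay within this range and that of Ccne1, 2.09, just under it. As the table holds genes that differ about 2-fold, that choice bounds the range from below. Over all 852 genes tested 46.6% were called higher. On the log2(FPKM + 1) scale Hmmr, Cenpa, Mki67 and Bub1b had the largest differences among the genes of G2 and mitosis. Of 23 listed p53 targets 2 were in the table and both fell, where 50.7% of all genes tested were called lower. Gadd45a fell to 3.64 ± 1.96 FPKM in OGD/R, against 19.5 ± 7.47 FPKM in control, and Bbc3 to 4.81 ± 0.639 FPKM in OGD/R, against 15.1 ± 2.80 FPKM in control (SD, n = 3 each; limma adjusted p = 0.0019 and 0.00027).

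**Figure D4:**
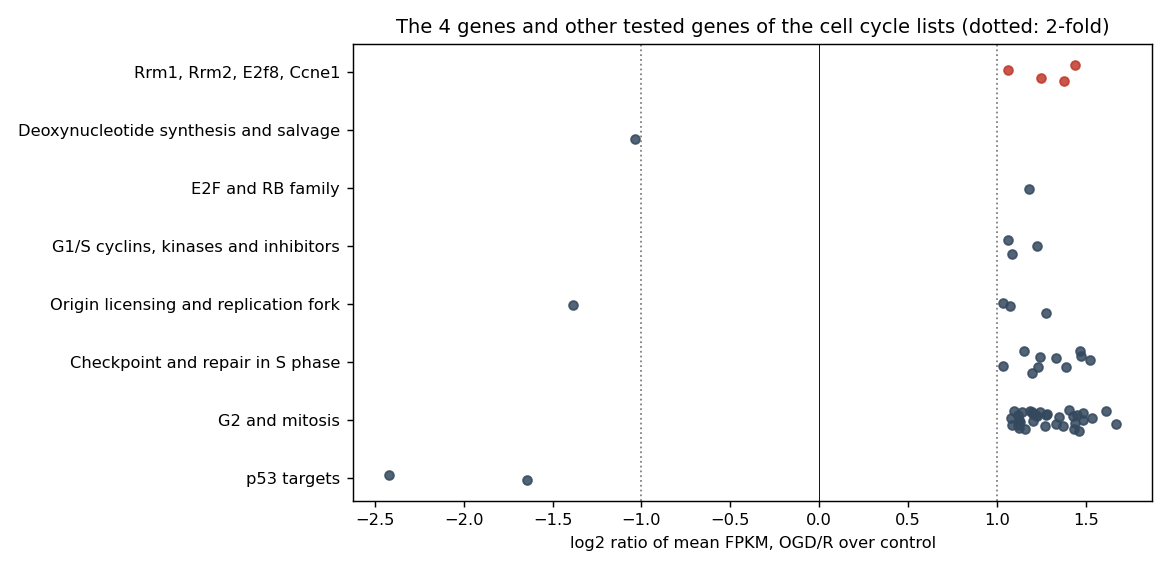
The log2 ratio of mean FPKM, OGD/R over control (horizontal axis), of Rrm1, Rrm2, E2f8 and Ccne1 (top row) and of the 55 other tested genes on 7 lists, 1 point per gene, with vertical scatter added for visibility and dotted lines at a 2-fold difference. The 4 lowered genes are Tk2, Recql4, Gadd45a and Bbc3, and no gene lies near 0 because the table holds genes already picked for a difference.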

How the data were processed

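RNA from 3 OGD/R and 3 control samples was sequenced as paired reads of 150 nt, per the labels' protocols. The authors deposited 1 table of FPKM values, printed to 2 decimals, and the submitters' processing notes name GRCm38 as the build. The sources used here do not give the aligner, the counter, the annotation, or how the 1228 genes were picked. Positions and exon lengths came from GENCODE M21 (GRCm38), which placed 1227 genes, and promoter sequences from RefSeq. Library sizes were sought at which low FPKM values (under 15 units) became whole, within rounding plus 0.03 units, with the exon union as length. At the sizes chosen 97.3% to 99.6% did. A unit may or may not be a read pair.

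Genes with a mean of at least 1 FPKM were tested in R 4.3.3 with limma 3.58.1 on log2(FPKM + 1), two-sided, eBayes with a trend, and Benjamini-Hochberg adjustment over the 852 genes at 0.05. This scale understates the change of low genes. The fit and the library sizes were tested on simulated data. Other steps used Python 3.11.15, pandas 2.3.3, numpy 2.4.6, scipy 1.17.1 and matplotlib 3.10.9. The 4 genes and all lists were chosen with earlier results of these data known, and the promoter motifs with the sequences in view. Named genes were the 4 genes, every tested gene of lists with at most 5 tested (without the 4), the 4 called genes of largest change in longer lists, and the 3 genes closest in value to each of the 4; Myc was named after its values were seen and Gm2788 for its overlap with E2f8. Alternatives covered the pseudocount, the expression minimum, scaling, a replicate block, each library left out and voom on the recovered units.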

Additional observations from a re-analysis of the deposited data

How the results depend on the processing

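Rrm1, Rrm2, E2f8 and Ccne1 were chosen for higher values in OGD/R and their groups did not overlap, so that direction was fixed by the choice and the settings bear only on its size. On the log2(FPKM + 1) scale the differences were 1.33, 1.21, 1.27 and 0.99. Leaving out 1 library at a time gave 1.25 to 1.44 for Rrm1, 1.12 to 1.27 for Rrm2, 1.21 to 1.31 for E2f8 and 0.85 to 1.08 for Ccne1. For E2f8 a smaller pseudocount gave 1.42 (0.1) and 1.44 (0.01), and voom gave 1.44; adding 1 to a low FPKM shrinks its change. Voom on these 4 genes and the rescaling to the principal transcript were chosen after seeing the data. The mean ratio of Rrm2 to Rrm1 was 1.11 to 1.32 in OGD/R and 1.27 to 1.57 in control with 1 library left out, and 0.571 in OGD/R and 0.634 in control per kilobase of principal transcript. Of the 852 genes tested 829 were called, 397 higher and 432 lower; leaving out 1 library gave 786 to 831, with 372 to 401 higher and 391 to 439 lower. With a minimum of 5 FPKM 423 genes were tested and 409 called, 188 higher and 221 lower. Apart from the 4, 33 named genes were tested: 21 list genes, and 12 others named as closest in value or for the overlap with E2f8. Each kept its call and direction in those of the 13 alternatives where it was tested; genes closest in value share the fixed direction of the 4. Whether the replicate numbers pair the libraries is not known. Between OGD/R and control libraries of equal number, deviations from the group mean correlated at 0.428, -0.349 and 0.375. Between those of unequal number they correlated at -0.628 to 0.479. Deviations within a group depend on each other, so these values cannot decide it. With the replicate block 835 genes were called, 395 higher and 440 lower, and the differences of the 4 genes were unchanged by construction. The smallest number of counted units behind a value of the 4 genes was 136, in Ccne1 in control replicate 1.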

Other observations

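The promoter windows of the other listed genes in the table held the same letters more often than those of all RefSeq genes, a description with no test. Windows were found for 46 of the 56 genes. Of their 52 windows, 78.8% held the E2F core and 13.5% the longer E2F form, where the shares were 36.3% and 2.26% of all 32851 windows. The CHR was in 55.8% of the 52, against 17.9% of all windows, and the CCAAT box in 67.3%, against 37.4%. Of the genes of the table, 387 of the 605 with the higher mean in OGD/R and 387 of the 623 with the lower mean had a window. Some had several, and the genes without one are left out here. The E2F core was in 50.5% of 511 windows of genes with the higher mean in OGD/R and in 48.9% of 493 windows of genes with the lower mean. In the same windows the CHR was in 20.7% of those with the higher mean and 11.4% of those with the lower mean, and the CCAAT box in 46.6% and 42.0%. The longer E2F form was in 3.91% of those with the higher mean and 1.83% of those with the lower mean, and the YY1 core in 3.91% and 6.90%. These differences were not tested. Base composition of the windows was not matched between these sets.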
